A study of Rattus norvegicus with 12 samples.

Results

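The genes described here encode the aggrecan aggregate of cartilage and the small proteins that tie it to the collagen network: Acan, Hapln1, Comp, Matn1, Matn2, Matn3, Matn4, Ucma, Cytl1 and Scrg1. They were chosen by name and not by a rule on their values, though with earlier results of these data known. Of these 10 genes, 8 were measured by 11 probe sets, out of 31099 probe sets and 14218 gene symbols in the whole table, and Matn3 and Matn4 were not analysed here. The samples were 12 arrays of total RNA from rat knee articular cartilage, 3 in each of 4 groups. The groups were cartilage 8 weeks after surgery that induces osteoarthritis (OA), cartilage 8 weeks after sham surgery, and the same OA and sham arms 2 weeks after the operation. Both arms had therefore been operated on. The labels give no strain, sex or age, and do not say whether the 3 arrays of a group came from separate animals, and the p-values cover no more than the spread among these arrays. Values are log2 GCRMA signals, on which a difference of 1 is a doubling, and having 3 arrays per group limits how precise any of them can be.

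Aggrecan, the product of Acan, is a large proteoglycan whose sulfated sugar chains hold water and let cartilage resist compression. Many aggrecan molecules bind along a hyaluronan strand, and link protein, the product of Hapln1, locks each one in place. COMP and the matrilins are multi-armed adaptors that connect collagen fibrils with each other and with proteoglycans, and loss of aggrecan from the matrix is an early feature of osteoarthritis. Ucma, Cytl1 and Scrg1 encode small secreted proteins of chondrocytes.

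RefSeq promoter sequences of the rat build GRCr8 were available for 7 of the 10 genes. Those of the core of the aggregate, Acan and Hapln1, and of Comp, the gene with the steadiest signal, are shown as the 250 bases before the start of the gene. A window of 300 bases, these and the next 50, was searched on both strands for ACAAT and ACAAAG, letters bound by SOX proteins such as the cartilage regulator SOX9, and for TATAAA, the core promoter box. Capitals mark a match.
Acan, chr1:142390701-142390950, plus strand: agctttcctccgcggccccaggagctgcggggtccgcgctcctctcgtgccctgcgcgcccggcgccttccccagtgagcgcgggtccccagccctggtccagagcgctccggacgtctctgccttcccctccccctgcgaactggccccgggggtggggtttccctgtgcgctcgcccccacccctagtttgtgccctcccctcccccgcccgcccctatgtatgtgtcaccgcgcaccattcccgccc
Hapln1, chr2:22366717-22366966, plus strand: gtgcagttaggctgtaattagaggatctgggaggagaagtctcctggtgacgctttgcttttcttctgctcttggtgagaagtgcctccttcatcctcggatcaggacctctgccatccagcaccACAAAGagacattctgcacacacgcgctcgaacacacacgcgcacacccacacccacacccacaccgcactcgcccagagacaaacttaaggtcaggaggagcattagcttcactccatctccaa
Comp, chr16:19089549-19089798, minus strand: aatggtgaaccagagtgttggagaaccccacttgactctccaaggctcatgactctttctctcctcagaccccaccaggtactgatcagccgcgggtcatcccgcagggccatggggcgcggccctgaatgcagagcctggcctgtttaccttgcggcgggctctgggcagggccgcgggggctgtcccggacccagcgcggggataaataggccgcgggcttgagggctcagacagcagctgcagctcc
ACAAAG was present in the windows of Hapln1, beginning 125 bases before the start, and Scrg1, beginning 86 bases before it, and in 18.8% of all 33469 rat promoters. ACAAT, in 33.7% of all promoters, and TATAAA, in 14.2%, were in none of the 7 windows. These are matches of letters and not binding sites. The Acan window was 73% G and C and the Comp window 64.7%, against 53.7% in Hapln1 and a median of 51.7% over all promoters.

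Chondrocyte markers were at the top of the signal range on every array. The mean of the 5 measured markers of a list of 6, which included Col2a1 and Col9a1, was 15.33, 15.52 and 15.65 in OA and 15.75, 15.73 and 15.69 in sham at 8 weeks, with every OA array below every sham array. It was 15.70 to 15.75 in OA and 15.67 to 15.77 in sham at 2 weeks. The array maxima were 16.4 to 16.6. The array OA 8 weeks replicate 1 stood apart. Its 3′ minus 5′ difference of the actin control probe sets was 5.38, against 7.72 to 8.66 on the other 11 arrays, and its 11 measured skeletal muscle markers averaged 14.6. A probe set was tested if its log2 value exceeded 4 on at least 3 arrays, which held for 15934 probe sets and for all 11 of these genes. A limma fit with a mean for each of the 4 groups gave the p-values, adjusted over all 15934 by the Benjamini-Hochberg method, and an adjusted p under 0.05 counted as a call.

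In OA cartilage at 8 weeks no member was called, in a comparison that called 3.46% of all tested probe sets (241 higher and 311 lower). With the replicate number as a block within each time, 1037 probe sets were called, against 552 without it, and still 0 of the 11. An unadjusted limma p under 0.05 was found for 2 of the 11 probe sets, and for 3423 of all 15934 tested. Both were lower in OA: matrilin 2, and 1 of the 3 probe sets of link protein. The groups did not overlap in these same 2 of 11 probe sets, and in 25.1% of all those tested. The median difference over the 11 probe sets was 0.06, against 0.01 over all. At 2 weeks no member was called, and limma called 0% of all tested probe sets, 269 having an unadjusted p under 0.05. The groups did not overlap in 1 of the 11, again Matn2, and in 5.38% of all. In bulk tissue, fewer cells of a type and less RNA per cell cannot be told apart.

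**Figure D1:**
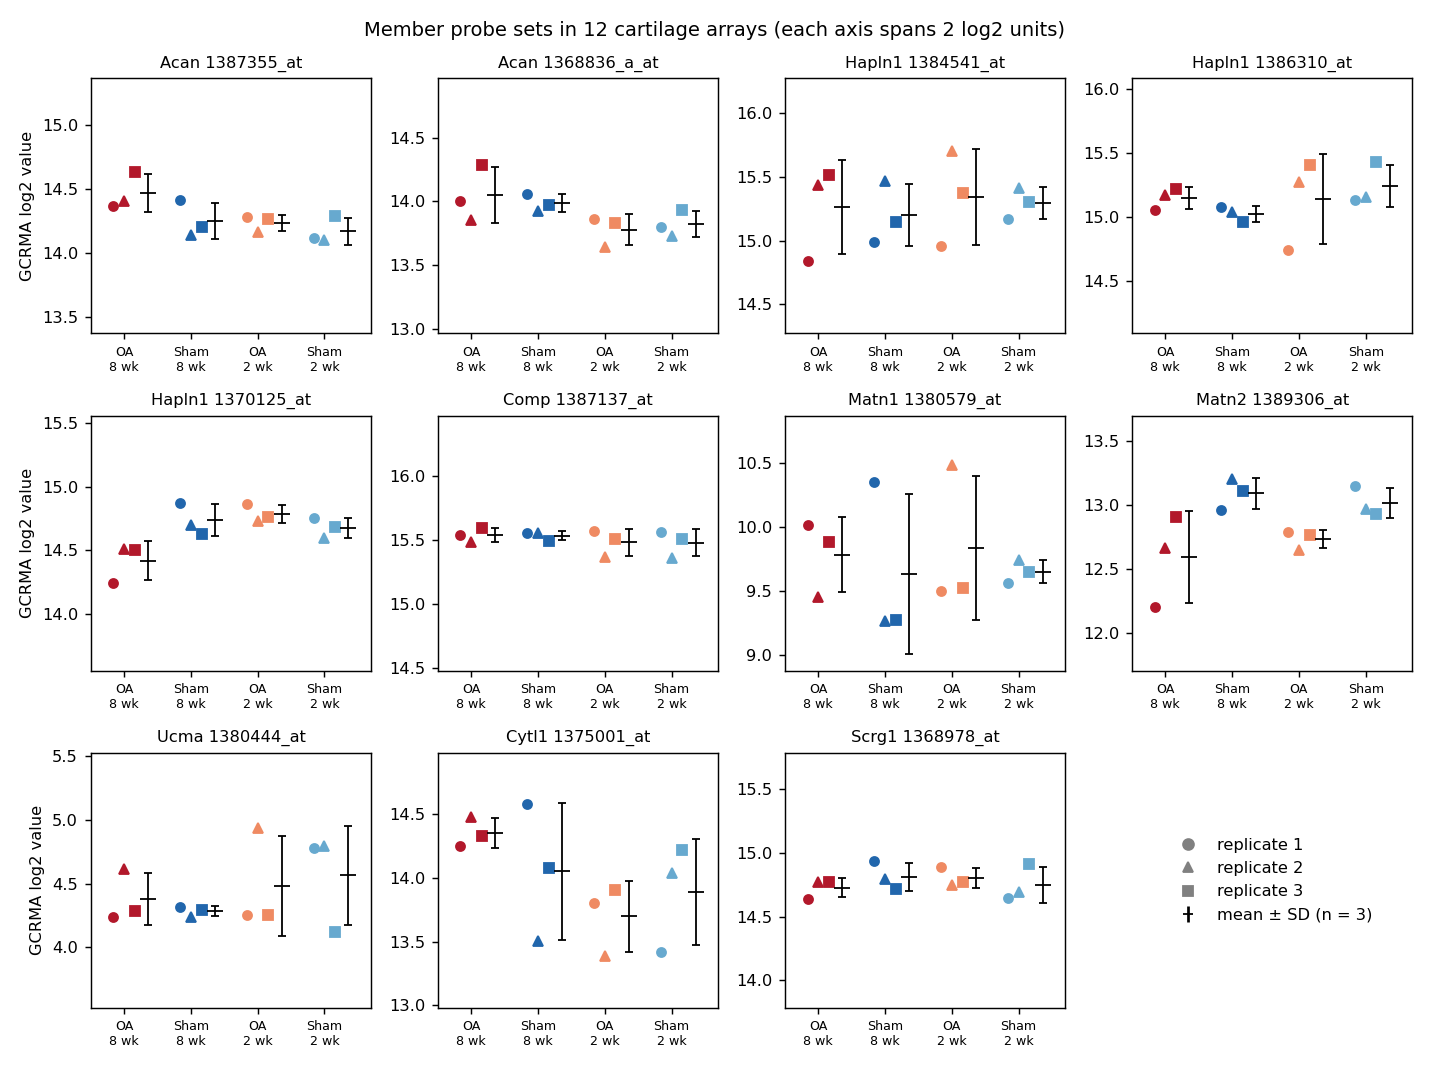
Log2 GCRMA signal of the 11 probe sets (vertical axes, each spanning 2 log2 units) in the 4 groups of 3 arrays. Coloured symbols are replicates 1 to 3 and black bars the mean ± SD. Comp and Scrg1 lay nearly flat, Matn2 was lower on all OA than on all sham arrays of its time, and Matn1 and Cytl1 scattered most.

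Acan was read by a pair of probe sets. The first, 1387355_at, had 14.37, 14.41 and 14.64 in OA at 8 weeks and 14.41, 14.14 and 14.20 in sham at 8 weeks. At 2 weeks it had 14.28, 14.16 and 14.26 in OA and 14.12, 14.10 and 14.29 in sham. The OA arrays at 8 weeks included the highest value of the 12, but the sham array of replicate 1 lay among them. The difference of OA minus sham was 0.22 ± 0.11 (SE, n = 3 arrays per group here and throughout; 95% interval -0.02 to 0.46, limma adjusted p = 0.271) at 8 weeks and 0.07 ± 0.11 at 2 weeks. The 8-week difference was 0.14 without OA replicate 3 and 0.35 without both number 1 arrays, and was called in neither. The second, 1368836_a_at, had 14.00, 13.85 and 14.29 in OA and 14.06, 13.92 and 13.97 in sham at 8 weeks. It differed by 0.06 ± 0.12 (95% interval -0.20 to 0.33, limma adjusted p = 0.816) at 8 weeks and by -0.04 ± 0.12 at 2 weeks. By the first probe set, the interval at 8 weeks reaches from 0.986 to 1.37 times the sham signal. The gene lies on chromosome 1 at 142390951 to 142453779 (GRCr8).

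The 3 probe sets of Hapln1, which lies on chromosome 2 at 22366967 to 22431709 (GRCr8), disagreed at 8 weeks. Probe set 1370125_at had 14.24, 14.51 and 14.50 in OA and 14.87, 14.70 and 14.63 in sham at 8 weeks, with all OA arrays below all sham arrays. The 2-week arrays had 14.86, 14.73 and 14.76 in OA and 14.75, 14.59 and 14.69 in sham, which overlapped. The difference was -0.32 ± 0.10 (95% interval -0.55 to -0.09, unadjusted p = 0.0121, limma adjusted p = 0.123) at 8 weeks and 0.11 ± 0.10 at 2 weeks. Without OA 8 weeks replicate 1, the lowest array, the 8-week difference was -0.23 (limma adjusted p = 0.262), and without both number 1 arrays it was -0.16 (limma adjusted p = 0.394).

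Probe set 1386310_at had 15.06, 15.17 and 15.22 in OA and 15.08, 15.04 and 14.96 in sham at 8 weeks. Probe set 1384541_at had 14.84, 15.44 and 15.51 in OA and 14.99, 15.47 and 15.15 in sham. Both overlapped between the groups, and their differences were 0.12 ± 0.16 (limma adjusted p = 0.710) and 0.06 ± 0.23 (limma adjusted p = 0.917). Over the 12 arrays, with the mean of each time subtracted, 1370125_at correlated with these at -0.26 and -0.03, whereas they correlated with each other at 0.55 and the Acan pair at 0.73. Where on the transcript each probe set lies was not analysed here.

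The disagreement can be read within single arrays, which removes what scales a whole array. The signal of 1370125_at minus that of 1386310_at was -0.82, -0.66 and -0.72 in OA and -0.21, -0.33 and -0.33 in sham at 8 weeks. The groups did not overlap, and the difference of -0.44 had an exact two-sided permutation p of 0.1, the smallest that 3 against 3 arrays can give and so no test at 0.05 (0.24 adjusted over the 12 such differences computed, which were chosen after the values were seen). Against 1384541_at the difference was -0.38, with an exact permutation p of 0.2.

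**Figure D2:**
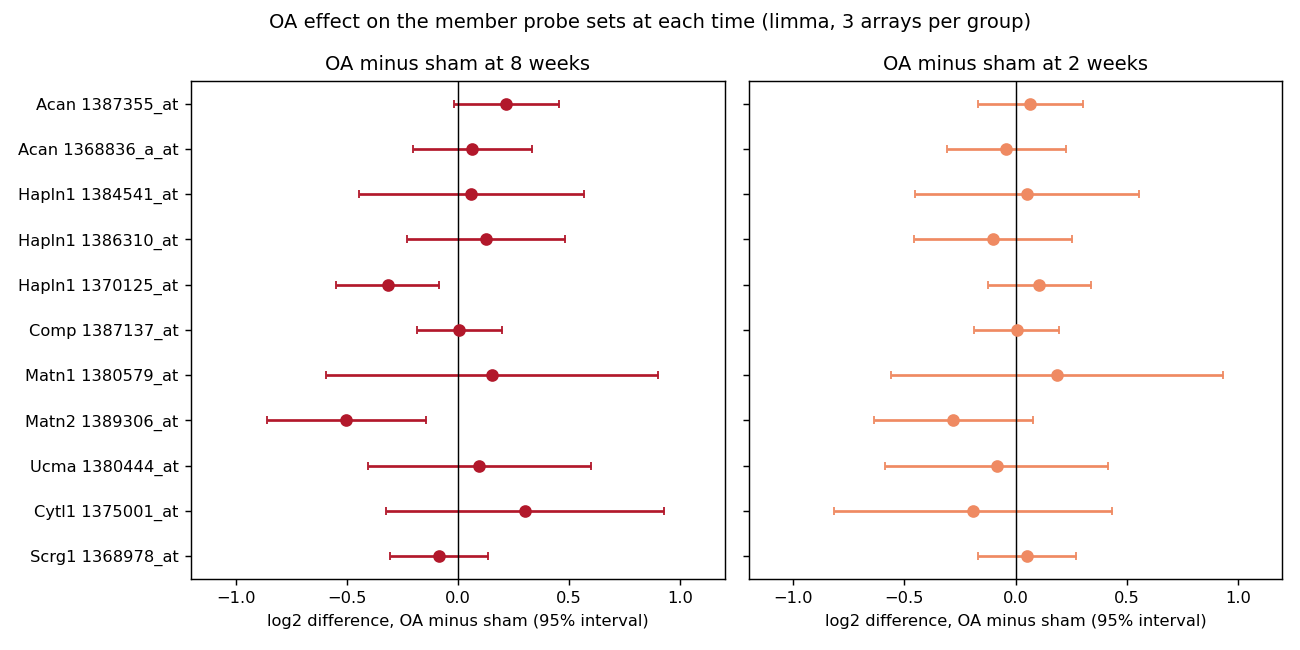
Log2 difference of OA minus sham (horizontal axis) for the 11 probe sets at 8 weeks (left) and 2 weeks (right), with 95% intervals from limma, 3 arrays per group. At 8 weeks the intervals of Matn2 and of Hapln1 1370125_at lie below 0, and at 2 weeks every interval spans 0.

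Comp, which encodes a pentameric thrombospondin that binds collagens and was the most constant of the members, showed no difference at either time. Its probe set 1387137_at had 15.54, 15.49 and 15.59 in OA and 15.55, 15.56 and 15.49 in sham at 8 weeks. The 2-week arrays gave 15.57, 15.37 and 15.51 in OA and 15.57, 15.36 and 15.51 in sham. All 12 values lay between 15.36 and 15.59, and the groups overlapped. The difference was 0.01 ± 0.09 (limma adjusted p = 0.979) at 8 weeks, with a 95% interval from 0.879 to 1.15 times the sham signal. It was 0.00 ± 0.09 at 2 weeks.

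The SD of Comp over the 12 arrays was 0.0751, and 0.96% of tested probe sets had a smaller one. For Scrg1 it was 0.0971 (3.19%), for the Acan pair 0.155 and 0.167 (15.5% and 18.7%), and for Matn1 and Cytl1 0.393 and 0.404 (64.6% and 65.8%). High signals vary less on this platform: the median SD was 0.140 for the 1226 probe sets with a mean above 13, against 0.295 for all tested. Whether differences of the brightest members are understated was not tested.

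Matn2 encodes matrilin 2, an adaptor found in many connective tissues besides cartilage. It was the only member whose OA and sham arrays did not overlap at both times, and it was lower in OA at each. Probe set 1389306_at had 12.20, 12.66 and 12.91 in OA at 8 weeks and 12.96, 13.20 and 13.11 in sham at 8 weeks. At 2 weeks it had 12.79, 12.65 and 12.76 in OA and 13.15, 12.97 and 12.93 in sham. The gap at 8 weeks between the highest OA and the lowest sham array was small, and the OA arrays varied more (SD 0.36, against 0.12 in sham).

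The difference of Matn2 was -0.50 ± 0.16 (95% interval -0.86 to -0.14, unadjusted p = 0.0108, limma adjusted p = 0.117) at 8 weeks and -0.28 ± 0.16 (95% interval -0.64 to 0.08, limma adjusted p = 0.99996) at 2 weeks. Averaged over both times it was -0.39 ± 0.11 (unadjusted p = 0.00628, limma adjusted p = 0.193). No call was made for any of the 11 probe sets in that average, which called 0.364% of all tested. Arrays that did not overlap in the same direction at both times were found for 0.941% of all tested probe sets, 150 in number. Without OA 8 weeks replicate 3 the 8-week difference was -0.66 and called (limma adjusted p = 0.0488). Without OA 8 weeks replicate 1, the array that stood apart, it was -0.31 (limma adjusted p = 0.210). Matn2 lies on chromosome 7 at 67380140 to 67529767 (GRCr8).

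Markers of other tissues moved with the 8-week arrays on which Matn2 was low. The 11 measured skeletal muscle markers averaged 14.6, 11.5 and 10.2 in OA and 10.7, 6.01 and 7.83 in sham at 8 weeks, with 10 of 11 higher in OA and 0 called. Over the 3 OA arrays at 8 weeks, Matn2 was lowest where the muscle markers were highest. At 2 weeks the muscle markers were 5.77 to 8.28 in OA and 6.13 to 7.0 in sham, which overlap, while Matn2 did not overlap. The 11 measured macrophage markers averaged 6.15 to 6.32 in OA and 7.33 to 9.99 in sham at 8 weeks, with 11 of 11 lower in OA and 4 called. They were 8.68 to 9.70 in OA and 8.30 to 10.1 in sham at 2 weeks. The 5 osteoclast markers were all called lower in OA at 8 weeks, as were 3 of 8 osteoblast and osteocyte markers and 1 of 6 synovial and tendon markers. The 4 endothelial markers were lower with 0 called. The 5 chondrocyte markers were lower too, with 1 called, Col9a1. The part of these cell types in the Matn2 and Hapln1 differences, and in those of the partner genes below, was not tested.

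**Figure D3:**
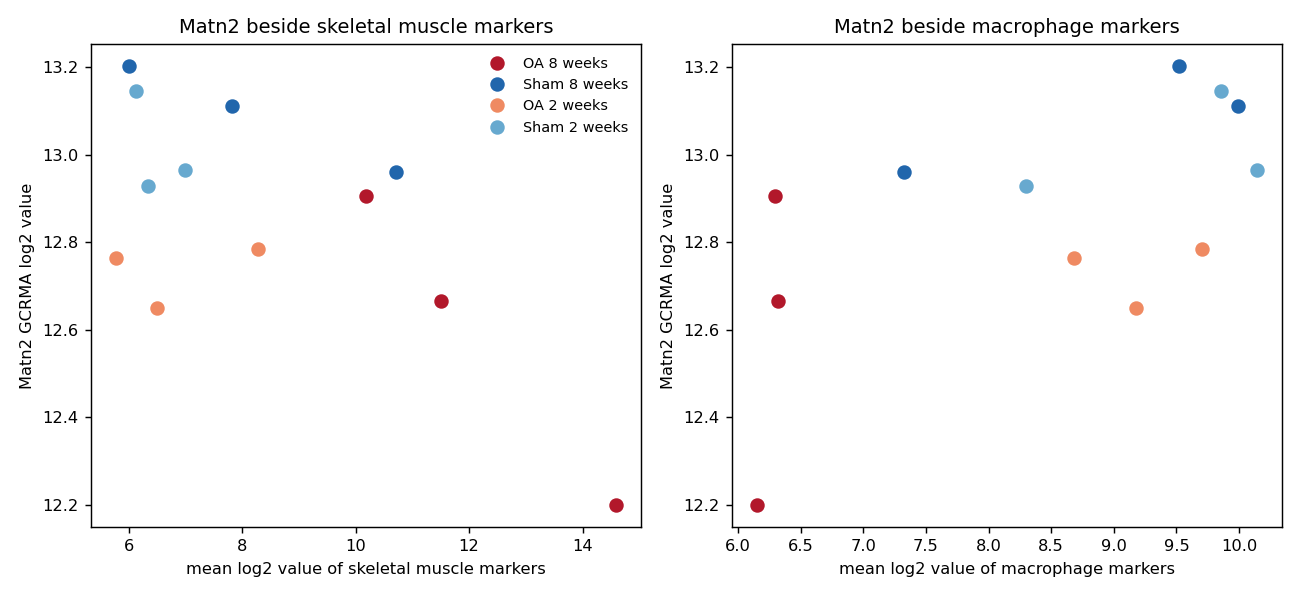
Log2 signal of Matn2 (vertical axes) against the mean log2 signal of 11 skeletal muscle markers (left) and 11 macrophage markers (right), 1 point per array. The OA 8-week array with the lowest Matn2, 12.20, had the highest muscle mean, 14.6, and at 2 weeks the OA points lie below the sham points over a shared range of muscle and macrophage means.

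Matn1 encodes matrilin 1, a cartilage-specific adaptor, and scattered widely within groups. Probe set 1380579_at had 10.02, 9.45 and 9.88 in OA and 10.36, 9.26 and 9.27 in sham at 8 weeks. The 2-week arrays gave 9.50, 10.48 and 9.52 in OA and 9.56, 9.74 and 9.65 in sham. Single arrays, sham replicate 1 at 8 weeks and OA replicate 2 at 2 weeks, lay well above the rest of their groups. The difference was 0.15 ± 0.33 (95% interval -0.59 to 0.90, limma adjusted p = 0.846) at 8 weeks and 0.19 ± 0.33 at 2 weeks.

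Ucma, which encodes a secreted protein rich in vitamin K-dependent carboxylated residues, was close to the filter level on every array. Probe set 1380444_at had 4.24, 4.62 and 4.29 in OA and 4.32, 4.24 and 4.29 in sham at 8 weeks. At 2 weeks it had 4.26, 4.94 and 4.25 in OA and 4.78, 4.80 and 4.12 in sham. At this level GCRMA compresses differences, and 0.10 ± 0.22 (limma adjusted p = 0.857) at 8 weeks and -0.08 ± 0.22 at 2 weeks do not bound a change of the RNA.

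Cytl1, a cytokine-like protein made by chondrocytes, had 14.25, 14.48 and 14.33 in OA and 14.58, 13.50 and 14.07 in sham at 8 weeks (probe set 1375001_at). The 2-week arrays gave 13.80, 13.39 and 13.91 in OA and 13.42, 14.04 and 14.22 in sham. The sham arrays of both times spanned almost the whole range of the gene. The difference was 0.30 ± 0.28 (limma adjusted p = 0.583) at 8 weeks and -0.19 ± 0.28 at 2 weeks. Single arrays set these values: at 8 weeks the difference was 0.03 without sham replicate 2 and 0.56 without sham replicate 1, and at 2 weeks it was -0.03 without sham replicate 3 and -0.43 without sham replicate 1.

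Scrg1, a secreted protein linked to chondrogenesis, had 14.64, 14.78 and 14.77 in OA and 14.93, 14.79 and 14.71 in sham at 8 weeks (probe set 1368978_at). The 2-week arrays had 14.89, 14.75 and 14.77 in OA and 14.65, 14.69 and 14.91 in sham. The groups overlapped at both times. The difference was -0.08 ± 0.10 (95% interval 0.809 to 1.10 times the sham signal, limma adjusted p = 0.679) at 8 weeks and 0.05 ± 0.10 at 2 weeks.

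Whether OA acted differently at the later time was tested as the OA effect at 8 weeks minus that at 2 weeks. None of the 11 probe sets was called, and 0.138% of all tested were. The lowest unadjusted p, 0.0159, belonged to Hapln1 1370125_at, with -0.42 ± 0.15 (limma adjusted p = 0.347). For Matn2 the difference of effects was -0.22 ± 0.23 (limma adjusted p = 0.748), and for Comp 0.00 ± 0.12.

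Between 8 and 2 weeks within OA cartilage, 1 of the 11 probe sets was called, in a comparison that called 34.1% of all tested. Hapln1 1370125_at fell by 0.37 ± 0.10 on the log2 scale (limma adjusted p = 0.0204), to 0.776 of its 2-week signal, while 1384541_at and 1386310_at differed by -0.08 and 0.01 and were not called. The call ended without OA 8 weeks replicate 1 (adjusted p = 0.0644), without OA 2 weeks replicate 1 (adjusted p = 0.0667) and with only the 6 arrays compared (adjusted p = 0.0624). Acan differed by 0.23 ± 0.11 (limma adjusted p = 0.120) and 0.27 ± 0.12 (limma adjusted p = 0.110), and Cytl1 by 0.65 ± 0.28 (limma adjusted p = 0.0990).

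The arrays of the 2 times did not overlap in 3 of 11 probe sets in OA, those of Acan 1387355_at, Hapln1 1370125_at and Cytl1, and in 46.6% of all tested. Within sham cartilage 0 of 11 were called and 18.7% of all, and 1 of 11, Hapln1 1386310_at, did not overlap, against 35.2% of all. Age and time since surgery cannot be told apart here, nor can anything else in which the arrays of the 2 times differed. With equal array medians the median of all tested probe sets in OA was -0.09, not 0.09 as deposited, and the calls were 2238 higher and 2840 lower, against 3461 and 1969 as deposited. On that scale Hapln1 1370125_at differed by -0.55 (limma adjusted p = 0.00883) and Acan 1387355_at by 0.05.

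The partners of these proteins were counted over lists of 53 genes, of which 44 were on the array and 36 could be tested, at 1 probe set per gene. At 8 weeks 1 was called higher and 6 lower in OA, where 3.48% of all 9247 genes were called, and 4 in all without OA 8 weeks replicate 1. Their median difference was -0.18, against -0.03 over all genes. At 2 weeks 0 were called, as were 0% of all genes, and the medians were -0.06 and -0.01. The lists were chosen with earlier results of these data known.

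Of 6 tested collagen partners, 3 were called lower in OA at 8 weeks, and these were the 3 chains of collagen IX, the fibril surface collagen to which COMP and matrilins bind. Col9a1 averaged 14.96 in OA and 15.45 in sham, a difference of -0.48 ± 0.10 (limma adjusted p = 0.0296). Col9a2 differed by -1.04 ± 0.20 (limma adjusted p = 0.0247) and Col9a3 by -0.60 ± 0.10 (limma adjusted p = 0.0158). Col2a1, the main fibril collagen, averaged 16.00 in OA and 16.20 in sham and was not called, at -0.20 ± 0.08 (limma adjusted p = 0.196). Biglycan, the product of Bgn and a small proteoglycan that can link matrilins to collagen, was called lower at -0.52 ± 0.11 (limma adjusted p = 0.0368). It was the 1 call among 6 tested genes of small proteoglycans and adaptors, whose differences ran between -0.52 and 0.56.

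These calls depended on single arrays. Of the 6 fits that each left out 1 of the 8-week arrays, Col9a1 and Col9a2 were called in 2, Col9a3 in 3 and Bgn in 1, and all differences stayed below 0. Without sham 8 weeks replicate 2 or replicate 3 Mmp3 was the only partner called, and without OA 8 weeks replicate 2 only Mmp3 and Mmp13 were. With equal array medians none of the collagen IX chains nor Bgn was called. With the replicate number as a block within each time Col9a1 was not called (limma adjusted p = 0.0561).

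Set against collagen IX on the same array, Acan and Comp read as follows at 8 weeks. Acan minus Col9a3 was 0.01, 0.11 and 0.18 in OA and -0.60, -0.80 and -0.74 in sham. Comp minus Col9a3 was 1.18, 1.19 and 1.14 in OA and 0.54, 0.62 and 0.55 in sham. Every OA array lay above every sham array in both, and the same was so against Col9a1. Each of these 4 had an exact two-sided permutation p of 0.1 (0.24 adjusted over the 12). At 2 weeks the exact permutation p of the 6 differences ran between 0.2 and 0.9. The pairs were chosen after the values were seen and after collagen IX had been called, and 3 against 3 arrays cannot pass a threshold of 0.05, so these values describe the arrays and test nothing.

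**Figure D4:**
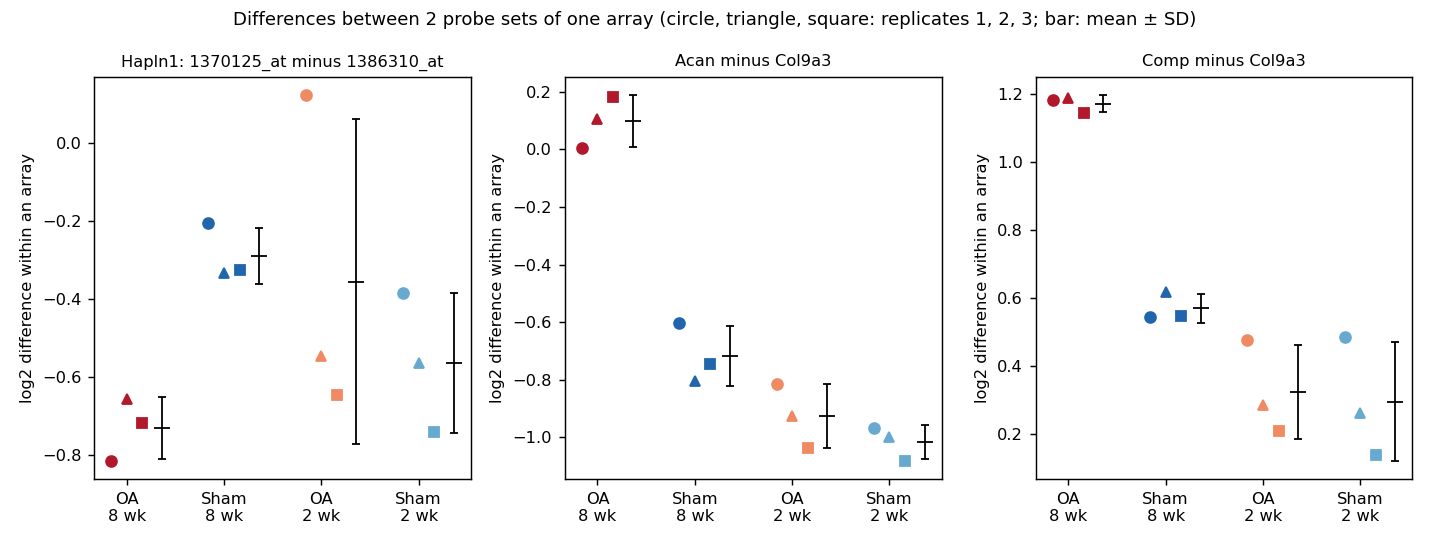
Log2 difference between 2 probe sets of the same array (vertical axes) for Hapln1 1370125_at minus 1386310_at, Acan minus Col9a3 and Comp minus Col9a3, in the 4 groups of 3 arrays. Symbols are replicates and bars the mean ± SD, and the OA arrays at 8 weeks lie apart from the sham arrays at 8 weeks in all 3 panels.

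Among 9 tested proteases that cut aggrecan, COMP or matrilins, 1 was called higher and 2 lower at 8 weeks. Mmp3, stromelysin 1, averaged 14.93 in OA and 13.36 in sham at 8 weeks, a difference of 1.57 ± 0.14 (limma adjusted p = 0.000771), and 14.91 in OA and 14.73 in sham at 2 weeks. Its difference of effects between the times was called too, at 1.39 ± 0.20 (limma adjusted p = 0.0415), as was its average over both times. In sham cartilage the mean was lower at 8 than at 2 weeks, and in OA it was almost equal at the 2 times. Mmp13, collagenase 3, averaged 11.93 in OA and 14.44 in sham at 8 weeks, a difference of -2.51 ± 0.46 (limma adjusted p = 0.0219). Adamts9 averaged 2.49 in OA, under the filter level, and 5.0 in sham (limma adjusted p = 0.0161). Of the 6 fits that each left out 1 of the 8-week arrays, Mmp3 was called in 6, Mmp13 in 4 and Adamts9 in 3. With only the 6 arrays compared none of them was called (limma adjusted p = 0.0525, 0.146 and 0.0961).

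The aggrecanases Adamts4 and Adamts5 were not called. Adamts4 differed by -0.71 ± 0.54 (limma adjusted p = 0.494) and Adamts5 by -0.16 ± 0.50 (limma adjusted p = 0.897) at 8 weeks. Of 8 tested genes of hyaluronan synthesis, binding and breakdown, 0 were called. Among them Has2, a hyaluronan synthase, differed by 0.10 ± 0.26 and Cd44, a cell surface receptor of hyaluronan, by -0.77 ± 0.96. The 3 tested lecticans and link proteins other than Acan and Hapln1 and the 3 tested thrombospondins other than Comp held 0 calls. The differences of the thrombospondins ran from -1.29 to 0.80. Of the chondrocyte transcription factors 1 was tested and not called, and Sox9 was not analysed here.

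**Figure D5:**
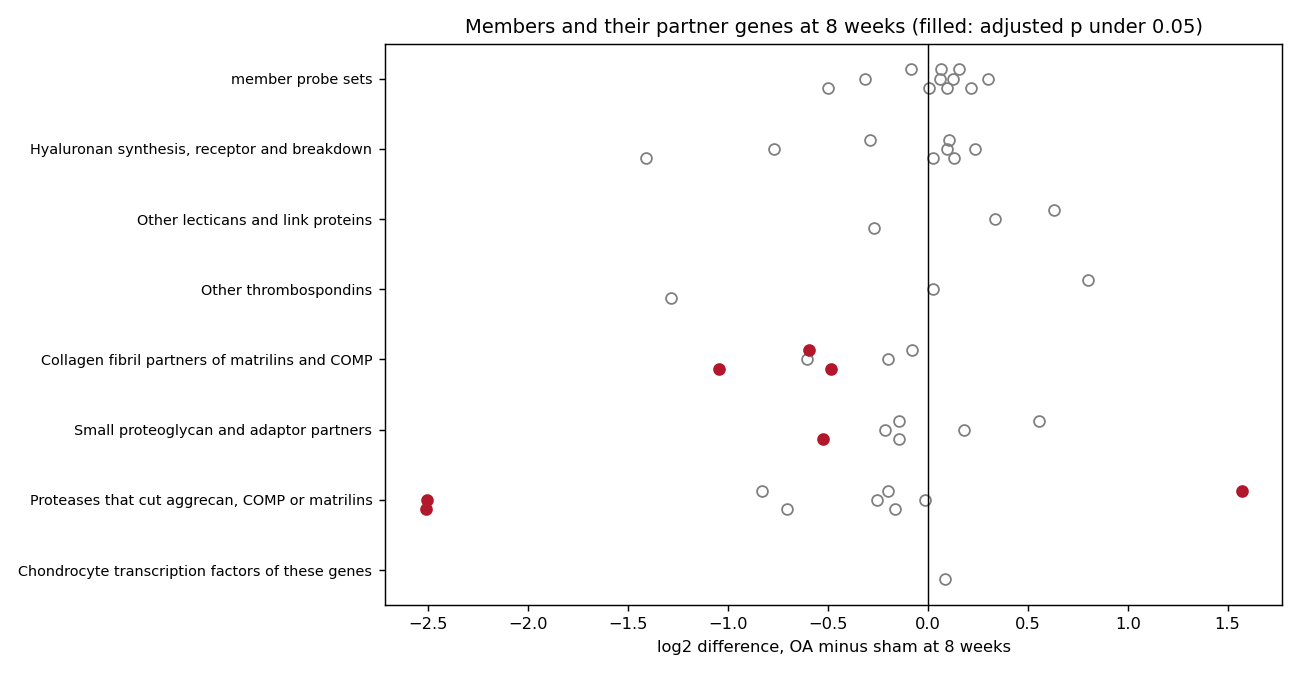
Log2 difference of OA minus sham at 8 weeks (horizontal axis) for the 11 probe sets of the members (top row) and for the tested partner genes of 7 lists, 1 dot per probe set or gene, filled where the limma adjusted p was under 0.05. The 3 collagen IX chains and Bgn are filled left of 0, Mmp13 is filled at -2.51 with Adamts9, whose OA signal was under the filter level, drawn beside it, and Mmp3 at 1.57 is the 1 filled dot to the right.

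How far the members varied together was described over the 12 arrays with the mean of each time subtracted. The arrays share normalization and tissue makeup, so no p is given. Differences between OA and sham were not removed, so one shared by 2 members, as by Hapln1 1370125_at and Matn2 at 8 weeks, adds to these values. Hapln1 1370125_at followed Scrg1 at 0.66 and Matn2 at 0.62, a pair that stood at 0.81 on the 6 arrays of 8 weeks and -0.31 on the 6 of 2 weeks. Acan 1387355_at followed Cytl1 at 0.62, Acan 1368836_a_at followed Comp at 0.64, and it ran against Ucma at -0.61. Acan and Hapln1 are partners in the same aggregate. Acan 1387355_at stood at -0.01 with the brightest Hapln1 probe set, 1384541_at, at 0.29 with 1386310_at and at -0.11 with 1370125_at. For Acan 1368836_a_at the values, in the same order, were -0.20, 0.14 and 0.03. The pair at 0.29 stood at 0.865 on the arrays of 8 weeks and 0.03 on those of 2 weeks.

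Each member's nearest genes are the highest of 9185 correlations over 12 arrays, and a high value can come from the search alone. The OA and sham means were not subtracted, so a shared OA difference adds to these values. Over 9185 genes, the signal most like that of Matn2 was that of Arsi, at 0.97, followed by Hmox2 at 0.97. Arsi, an arylsulfatase, ranged from 7.73 to 11.7 and was -2.03 in OA against sham at 8 weeks without being called (limma adjusted p = 0.0730). Acan was most like Ampd3 at 0.94 and Hectd4 at 0.93, Hapln1 like Ankra2 at 0.94 and Ppp1cb at 0.93, and Comp like Tgif1 at 0.93 and Znfx1 at 0.92. Cytl1 was most like Stk35 at 0.97 and Rasgef1b at 0.94, Scrg1 like Skil at 0.92 and Papolg at 0.90, and Ucma like Llph at 0.93 and Robo1 at 0.93. Robo1 ranged from 2.50 to 4.81, near or under the filter level. Matn1 had the weakest likeness to any gene, 0.84 for Foxo4 and 0.77 for Plxna4. None of these neighbours was called between OA and sham at 8 weeks, where 3.48% of all 9247 genes were called, so few or no calls would be usual.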

How the data were processed

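Total RNA from knee articular cartilage was biotin labelled and hybridized to 1-colour Affymetrix arrays, per the labels' protocols. The values are log2 values that the authors deposited for 31099 probe sets, made with GCRMA per the submitters' processing notes, with the version not given in the sources used here. They were used without further normalization.

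Symbols came from the array's annotation: 20832 probe sets carried 1 symbol, 436 several and 9831 none. The 57 control probe sets were left out, as were 15108 others that did not exceed a log2 value of 4 in 3 arrays. The 15934 left were fitted with limma 3.58.1 in R 4.3.3 (8 residual and 1.94 prior degrees of freedom), with Benjamini-Hochberg adjustment over all of them. Lists of partners used the brightest kept probe set of each of 9247 genes. Exact permutation tests over arrays were used only for differences between 2 probe sets of the same array. The fit was tested on simulated data with independent noise on each array and changes only in OA at 8 weeks. Deviations shared between arrays were not simulated. Motif searches used pandas 2.3.3 under Python 3.11.15, and figures used matplotlib 3.10.9 with numpy 2.4.6.

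All probe sets of each member are given, with the 2 genes most correlated with it (Pearson, mean of each time subtracted, unnamed loci left out), every partner gene called between OA and sham, and Has2, Cd44, Adamts4, Adamts5, Col2a1 and Sox9 whatever their values. The members, lists and rules were chosen with earlier results of these data known. Same-numbered OA and sham arrays of a time deviated together (correlations of 0.119 to 0.239 at 8 weeks and 0.333 to 0.527 at 2 weeks). Same-numbered arrays of 8 and 2 weeks gave 0.035 to 0.237 in OA and -0.497 to 0.074 in sham. Arrays of different numbers were not compared, and the labels do not say whether the numbers pair arrays. The errors and p-values given are without pairing by number, and the replicate block was an alternative. The alternatives were other filters, scalings, variance models, array weights, that block, fewer arrays and the second probe set of a gene. Scanner files were not used here.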

Additional observations from a re-analysis of the deposited data

How the results depend on the processing

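Of 852 recomputed values, 804 kept their direction and side of the threshold or, for counts, stayed near the main count. Many could not have changed direction: an 8-week difference is the same when a 2-week array is left out or the filter or variance model is changed. Its adjusted p can still change in those settings. The only member called in the main fit was Hapln1 1370125_at, between 8 and 2 weeks in OA. Most values therefore kept their side by staying uncalled, and the tally does not measure robustness. No called value changed sign. The members called between OA and sham at 8 weeks were 0 in every setting except without OA 8 weeks replicate 3, where Matn2 made it 1, so leaving out single arrays gave 0 to 1. The replicate block changed no call of a member: Matn2 at 8 weeks had an adjusted p of 0.124 with the number as a block over all arrays and 0.0655 with a block within each time. Over all probe sets at 8 weeks the calls were 552, against 1037 with the block within each time, 1567 with array weights, 283 with equal array medians, 362 without the filter and 27 with only the 6 arrays compared. Without single arrays they were between 110 and 979.

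Small differences changed sign. At 8 weeks Comp was -0.00760 with equal array medians, and Scrg1 was 0.0202 without both number 1 arrays. At 2 weeks, with array weights, Acan 1368836_a_at was 0.00813, Hapln1 1384541_at -0.00136 and Cytl1 0.0259. At 2 weeks Comp was -0.0468 with quantile normalization and -0.000967 with equal array medians, and the second probe sets gave -0.0419 for Acan and -0.0994 for Hapln1. Without single arrays, the 8-week ranges crossing 0 were -0.0556 to 0.161 for Acan 1368836_a_at, -0.0650 to 0.273 for Hapln1 1384541_at, -0.0209 to 0.0313 for Comp, -0.0294 to 0.516 for Matn1 and -0.0207 to 0.167 for Ucma. At 2 weeks they were -0.0862 to 0.0266 for Acan 1368836_a_at, -0.129 to 0.246 for Hapln1 1384541_at, -0.232 to 0.0993 for Hapln1 1386310_at, -0.0545 to 0.0613 for Comp, -0.138 to 0.353 for Matn1 and -0.311 to 0.0307 for Ucma.

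The partner genes called at 8 weeks were 7, but 3 with equal array medians, 3 without both number 1 arrays and 0 with only the 6 arrays compared. Without single arrays they were 1 to 7: 4 without OA 8 weeks replicate 1, 2 without OA 8 weeks replicate 2, and 1 without sham 8 weeks replicate 2 or replicate 3. Between 8 and 2 weeks in OA the members called were 0 to 2 without single arrays: 0 without replicate 1 of either time, and 2 without OA 8 weeks replicate 2, where Acan 1368836_a_at was added at 0.37 (adjusted p = 0.0457). With only the 6 arrays compared the count stayed at 1, but the member called was Cytl1 (adjusted p = 0.0310) and not Hapln1 1370125_at. The causes were not tested. Ucma, near the filter level, is limited by its signal over background.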
